A study of Mus with 96 samples.

Results

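The genes of the mitochondrial respiratory chain were followed in the livers of mice with and without Bmal1 in hepatocytes, fed chow or a diet that produces steatohepatitis. Members were taken by symbol: the Nduf a, b, c, s and v genes of complex I, the Sdh genes of complex II, the Uqcr genes of complex III, the Cox4 to Cox8 genes of complex IV, the Atp5 genes of complex V, and the mt-Nd, mt-Cytb, mt-Co and mt-Atp genes of the mitochondrial DNA. The rule used names and a minimum of 100 counts summed over all libraries, and no comparison between groups, but it was set with earlier results of these data known. Of 115 genes with such names, 95 passed the minimum, out of 15548 that passed in the whole table. They were 87 nuclear genes (38 of complex I, 4 of complex II, 8 of complex III, 19 of complex IV and 18 of complex V, with 4 pseudogenes among them) and 8 mitochondrial genes. Ndufa4 carries a complex I name and was counted with complex IV, where its protein is known to sit.

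The respiratory chain passes electrons from NADH, through complex I, and from succinate, through complex II, to ubiquinone, then through complex III and cytochrome c to complex IV, which reduces oxygen. Complexes I, III and IV pump protons, and complex V, the ATP synthase, uses the gradient to make ATP. All subunits of complex II and most of those of the other complexes are encoded in the nucleus and imported, while a small set of core subunits is transcribed from mitochondrial DNA inside the organelle. Hepatocytes are rich in mitochondria, and in liver this chain oxidizes the products of fatty acid breakdown.

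Liver RNA of 96 mice was read by BRB-seq, a method that tags the samples, pools them and reads the 3′ ends of polyadenylated RNA. Mice were AlbCre/+ Bmal1flx/flx (Hep-Bmal1KO) or their Alb+/+ Bmal1flx/flx littermates (Hep-Bmal1WT), 8 to 10 weeks of age, of both sexes, and kept in 12 hours of light and 12 of darkness, with time given as zeitgeber time (ZT, hours after lights on). Both genotypes carried the floxed Bmal1 alleles, and Cre under the Alb promoter served to delete Bmal1 in hepatocytes. Bmal1 in the other cells of the Hep-Bmal1KO liver was not measured apart. Each genotype received chow or, for 2 weeks, cdHFD, a choline-deficient diet with 60% fat, 2% cholesterol and 0.17% methionine, and 4 mice per genotype and diet were taken at each of ZT 2, 6, 10, 14, 18 and 22, which gave 4 groups of 24 livers. As the samples are bulk tissue, fewer cells of a type and less RNA per cell cannot be told apart in any of the values.

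Library depth on genes ran from 1861740 to 9718615 reads (median 6412078), with group medians between 5769262 in Hep-Bmal1WT chow and 7637271 in Hep-Bmal1KO cdHFD. In 7 libraries (2 of Hep-Bmal1WT chow, 2 of Hep-Bmal1WT cdHFD, 2 of Hep-Bmal1KO chow and 1 of Hep-Bmal1KO cdHFD), 10 clock genes and 20 other genes both lay nearer the other genotype than the label. The level of the targeted gene, listed as Arntl, does not check the labels at every time. On chow at ZT22, Arntl ran from 12.6 to 22.1 CPM in Hep-Bmal1WT and from 7.45 to 9.89 CPM in Hep-Bmal1KO, without overlap. On chow at ZT14 the genotypes overlapped, with 0.871 to 5.95 CPM and 4.304 to 7.23 CPM. Whether the 3′ reads of Arntl fall outside the deleted internal exon was not tested. Libraries of ZT10 stood apart from those of the other times in all 4 groups, as described with the rhythms. Each of the 12 columns of library positions held mice of 1 genotype and diet, so position and group cannot be told apart. Main results are therefore also given without the 7 libraries and without the 16 libraries of ZT10. Markers of the liver's cell types were present, with 10 of 10 hepatocyte markers above the minimum count.

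The counted reads gave an uneven view of the mitochondrial genome. Of its 13 protein genes, mt-Nd1, mt-Nd2, mt-Nd3, mt-Nd4, mt-Nd5, mt-Nd6, mt-Cytb and mt-Co1 passed the minimum, with sums from 144 counts for mt-Nd3 and 6089 for mt-Nd6 to 8251158 for mt-Nd1. No read was counted on mt-Co2, mt-Atp8 or mt-Nd4l, and 1 read each on mt-Atp6 and mt-Co3, so complex V had no mitochondrial member, and complexes III and IV had 1 each. Neighbouring genes overlap by a few bases on the mitochondrial DNA (mt-Nd5 at MT:11742-13565 and mt-Nd6 at MT:13552-14070 in GRCm38.p6), and whether the counting used the strand is not given in the sources used here. How reads that also match another place were treated is not given either. Among the named nuclear copies of mitochondrial sequence, Gm10222, Gm10925, Gm28437, Gm28438, Gm28439 and Gm28661 had 0 counts, and Gm13340, Gm29216 and Gm13341 had 49, 121 and 229. Of the nuclear members, 75 had at least 10000 counts in all.

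Levels are given as CPM, counts per 1e6 reads after scaling each library by edgeR's TMM factors, which set the bulk of the genes at equal level in all libraries. The factors separated the diets completely, with 0.766 to 0.929 in the 48 chow libraries and 1.04 to 1.35 in the 48 cdHFD libraries. The 50 most counted genes took a median of 46.4% and 42.5% of the reads in Hep-Bmal1WT and Hep-Bmal1KO on chow and 37.3% and 36.2% on cdHFD. Shares of all counted reads or results under library totals are therefore given beside the main differences between diets. Unless stated otherwise, tests are edgeR's quasi-likelihood test in which ZT was a factor, adjusted by Benjamini-Hochberg over 15548 genes, and "called" means an adjusted p under 0.05.

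Summed over the 8 mitochondrial genes, the level in Hep-Bmal1WT chow had a lowest, median and highest value of 35030, 51304 and 62343 CPM, and in Hep-Bmal1KO chow of 26777, 36368 and 59732 CPM. The ranges overlapped, but 23 of the 24 Hep-Bmal1KO livers lay below the Hep-Bmal1WT median and 9 below the lowest Hep-Bmal1WT liver. The means were 49128 ± 7410 and 37960 ± 7473 CPM (SD, n = 24 each), a ratio of 0.773, and the mean was lower in Hep-Bmal1KO at 6 of 6 ZTs. The widest gap was at ZT22, with 50298 ± 6155 against 30899 ± 3221 CPM, and at ZT14, with 58359 ± 3722 against 40063 ± 5839 CPM (SD, n = 4 each). At ZT6 the means were 41274 ± 4414 and 37863 ± 7898 CPM, with overlapping livers.

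On cdHFD, the same sum ran from 14236 over a median of 30548 to 48058 CPM in Hep-Bmal1WT and from 21791 over 25917 to 42585 CPM in Hep-Bmal1KO. None of the Hep-Bmal1KO livers lay below the lowest Hep-Bmal1WT liver, and the ratio of the means was 0.922. The nuclear sum did not separate the genotypes on chow, with 22262, 29564 and 34463 CPM (lowest, median and highest) in Hep-Bmal1WT and 24019, 30453 and 32555 CPM in Hep-Bmal1KO, a ratio of means of 1.01. On cdHFD it was 16938, 21644 and 24639 CPM in Hep-Bmal1WT and 14406, 20070 and 25263 CPM in Hep-Bmal1KO, a ratio of 0.939. As a share of counted reads, the group medians of the mitochondrial sum were 4.18% in Hep-Bmal1WT chow, 3.18% in Hep-Bmal1KO chow, 3.55% in Hep-Bmal1WT cdHFD and 3.24% in Hep-Bmal1KO cdHFD. The nuclear sum kept within 2.43% and 2.62% in the same 4 medians.

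**Figure D1:**
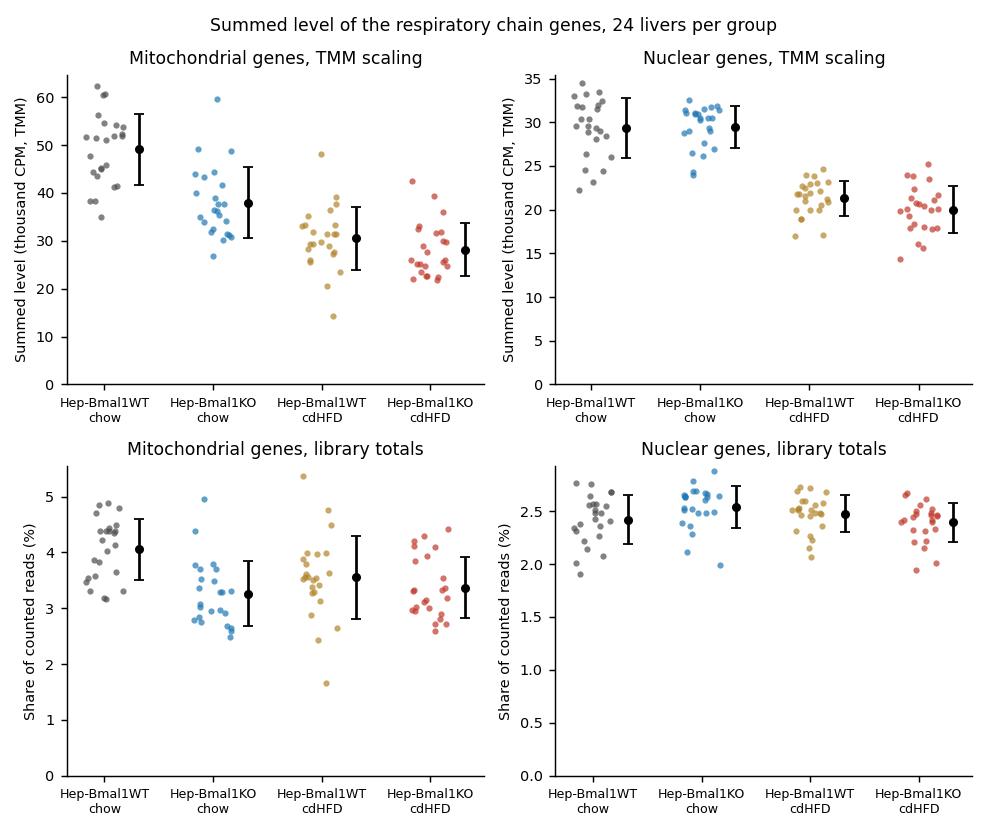
Summed level of the 8 mitochondrial (left) and 87 nuclear (right) respiratory chain genes in each of the 24 livers of a group, in units of 1000 CPM after TMM scaling (top) and as a percentage of counted reads (bottom), with the mean and SD in black. On the TMM scale the mitochondrial mean was 49128 CPM in Hep-Bmal1WT chow and 37960 CPM in Hep-Bmal1KO chow, while the nuclear means were 29333 and 29487 CPM, and the nuclear medians in the bottom panel lie between 2.43% and 2.62%.

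Gene by gene on chow, 6 of the 8 mitochondrial genes were lower in Hep-Bmal1KO, against 5.45% of all genes tested. The 87 nuclear members gave 5 called lower and 5 called higher, where 7.08% of all genes were higher, and their median log2 fold change was -0.02, against -0.37 for the mitochondrial genes. The complex I subunit mt-Nd1 (MT:2751-3707) had 9918, 16592 and 24421 CPM (lowest, median and highest) in Hep-Bmal1WT and 8347, 12743 and 18650 CPM in Hep-Bmal1KO. Its log2 fold change was -0.42 (SE 0.08, adjusted p = 0.00039 in edgeR's test), and the groups overlapped. For mt-Nd4 (MT:10167-11544), a membrane subunit of complex I, the values were 5416, 7878 and 11648 CPM against 4042, 6007 and 12024 CPM. The log2 fold change of mt-Nd4 was -0.41 (SE 0.06, adjusted p = 3.6e-06), the smallest p among the members in this comparison. The livers overlapped here too, and the highest value of all, 12024 CPM, came from replicate 3 of Hep-Bmal1KO chow at ZT10, which is among the 7 libraries at odds with their label.

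The complex I gene mt-Nd5 had 371, 519 and 721 CPM in Hep-Bmal1WT chow and 275, 398 and 634 CPM in Hep-Bmal1KO chow, and fell by 0.38 on the log2 scale (SE 0.06, adjusted p = 1.7e-05). The gene mt-Nd2, also of complex I, had 7222, 10466 and 12689 CPM against 6134, 8056 and 12427 CPM, a log2 fold change of -0.32 (SE 0.06, adjusted p = 0.00015). The cytochrome b gene mt-Cytb (MT:14145-15288), the mitochondrial member of complex III, had 7722, 9981 and 13782 CPM against 5265, 7880 and 13998 CPM, a log2 fold change of -0.36 (SE 0.08, adjusted p = 0.00089). In all of these the medians differed and the ranges overlapped. The sixth gene, mt-Nd3, was called at a log2 fold change of -1.42 (SE 0.48, adjusted p = 0.041) on only 144 counts in all, and its call did not hold without ZT10 or without the 7 libraries at odds with their label.

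The other mitochondrial genes were not called on chow. The complex I gene mt-Nd6, the only one of these transcribed from the other strand of the mitochondrial DNA, had medians of 10.4 and 9.80 CPM and a log2 fold change of -0.36 (SE 0.15, adjusted p = 0.12). The complex IV core subunit mt-Co1 had medians of 1841 and 1969 CPM and a log2 fold change of -0.12 (SE 0.18, adjusted p = 0.76), with livers spread from 617 to 3761 CPM in Hep-Bmal1WT. The mitochondrial ribosomal RNAs mt-Rnr1 and mt-Rnr2, which lie upstream on the same strand as most of the protein genes, had log2 fold changes of -0.12 (SE 0.11, adjusted p = 0.58) and -0.03 (SE 0.10, adjusted p = 0.90). Their summed median was 36226 CPM in Hep-Bmal1WT chow and 38449 CPM in Hep-Bmal1KO chow.

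Without the 7 libraries at odds with their label, 6 mitochondrial genes were again lower, where 7.71% of all genes were, with log2 fold changes of -0.52 for mt-Nd1, -0.48 for mt-Nd4, -0.48 for mt-Nd6, -0.46 for mt-Cytb, -0.43 for mt-Nd5 and -0.40 for mt-Nd2. Without ZT10, 5 were lower, where 3.84% of all genes were. Scaling by library totals in place of TMM gave 6 mitochondrial genes lower, where 3.54% of all genes were. Hepatocyte markers differed in part between these groups, with 2 of 10 higher (Ass1 and Fgb) and 2 of 10 lower (Alb and Hnf4a) in Hep-Bmal1KO and sums of 110655, 162882 and 222564 CPM (lowest, median and highest) against 102491, 122946 and 221296 CPM. None of the 10 Kupffer cell markers was called or had an unadjusted p under 0.05 in edgeR. Of 5 cholangiocyte markers 1 was higher, with summed medians of 15.3 and 29.2 CPM. Reads that did not align made up a median of 22.4% in Hep-Bmal1WT chow and 18.4% in Hep-Bmal1KO chow, with medians of 28.2% and 19.4% at ZT22, 26.1% and 21.5% at ZT14, and 17.8% and 18.2% at ZT6. The part of hepatocyte RNA and of unaligned reads in the mitochondrial difference was not tested.

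**Figure D2:**
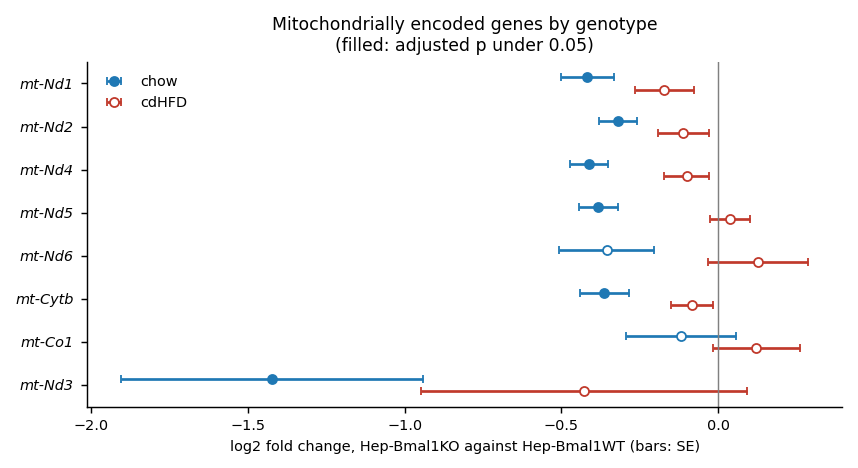
Log2 fold change of each mitochondrial gene, Hep-Bmal1KO against Hep-Bmal1WT, on chow (blue) and cdHFD (red), with bars for the SE from edgeR's fit and filled points for an adjusted p under 0.05. The 6 filled points are all on chow, at log2 fold changes from -1.42 (mt-Nd3) to -0.32 (mt-Nd2), and the cdHFD points lie between -0.43 and 0.13.

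On cdHFD no mitochondrial gene was called between genotypes by edgeR, 0 of 8 had an unadjusted p under 0.05, and DESeq2 and the other alternatives also called none. The values of mt-Nd5 were 189, 279 and 449 CPM in Hep-Bmal1WT cdHFD and 226, 296 and 395 CPM in Hep-Bmal1KO cdHFD, a log2 fold change of 0.04 (SE 0.06, adjusted p = 0.80). For mt-Nd4 they were 2772, 4467 and 8557 CPM against 3355, 4409 and 6268 CPM, a log2 fold change of -0.10 (SE 0.07, adjusted p = 0.46). Of the mitochondrial ribosomal RNAs, mt-Rnr1 was higher in Hep-Bmal1KO cdHFD by 0.45 (log2, SE 0.13, adjusted p = 0.018).

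The difference between diets in the genotype effect was itself tested. It was called for mt-Nd5, at 0.42 (log2, SE 0.09, adjusted p = 0.0027), where 0.817% of all genes were called in this direction. Over the alternatives tried, the adjusted p of mt-Nd5 lay between 0.00063 and 0.052, and the value of 0.052 came from the fit without replicate 2 of each group and ZT. All 8 mitochondrial genes had a term above 0 and 5 had an unadjusted p under 0.05, among them mt-Nd4 at 0.31 (SE 0.10, adjusted p = 0.065) and mt-Cytb at 0.27 (SE 0.10, adjusted p = 0.15). Without the 7 libraries mt-Nd5 (0.45), mt-Nd4 (0.35) and mt-Cytb (0.35) were called, where 1.94% of all genes were. Without ZT10 mt-Nd5 (0.50, adjusted p = 0.0016) and mt-Nd4 (0.38, adjusted p = 0.041) were called, where 0.277% of all genes were. No nuclear member was called in either direction, with 1.41% of all genes called lower. Of the 87, 76 had a term below 0 and 16 an unadjusted p under 0.05, with a median term of -0.09 against 0.01 over all genes. Members read in the same livers are not independent, so these counts of signs and of unadjusted p are a description. The shares of all genes beside them are not reported here. The nuclear members called lower came to 5 without the 7 libraries, where 3.31% of all genes were, to 4 under library totals, where 2.08% were, and to 1 by DESeq2's test, where 2.03% were.

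Among the nuclear members, the 5 that were higher in Hep-Bmal1KO on chow were Ndufv3, Ndufa6, Ndufc2 and Ndufs3 of complex I and Cox7a2l, counted here with complex IV. Ndufv3, an accessory subunit of the NADH-binding arm, had 234, 291 and 396 CPM (lowest, median and highest) in Hep-Bmal1WT and 285, 350 and 420 CPM in Hep-Bmal1KO. Its log2 fold change was 0.25 (SE 0.05, adjusted p = 0.00021), with overlapping groups. Cox7a2l had 32.2, 63.1 and 76.9 CPM against 40.5, 72.03 and 86.1 CPM, a log2 fold change of 0.21 (SE 0.06, adjusted p = 0.0086). The other 3 had log2 fold changes of 0.15 to 0.19.

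The 5 that were lower on chow were Ndufa1, Ndufa5 and Ndufb8 of complex I at log2 fold changes of -0.17, -0.22 and -0.21, and the low-count genes Ndufs6b (-1.37) and Cox7a1 (-0.97), a complex IV isoform known from heart and skeletal muscle. Complexes II, III and V had no called nuclear member on chow by edgeR, and none of their nuclear genes had an unadjusted p under 0.05. Without ZT10 the nuclear calls came to 2 higher, where 5.09% of all genes were, and 2 lower, where 3.84% were. Under library totals they came to 10 higher, where 11.1% of all genes were, and 2 lower, where 3.54% were.

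On cdHFD, 6 nuclear members were lower in Hep-Bmal1KO and none higher, where 4.92% of all genes were lower and 4.75% higher. They were Ndufs7, a core subunit of complex I that holds an iron-sulfur cluster, Ndufa5, Ndufb7, Ndufb9 and Ndufb6 of complex I, and Cox8a of complex IV. Ndufs7 had 139.8, 169 and 205 CPM in Hep-Bmal1WT cdHFD and 109, 146 and 228 CPM in Hep-Bmal1KO cdHFD, a log2 fold change of -0.21 (SE 0.05, adjusted p = 0.0013), with overlapping livers. The differences of the other 5 were -0.15 to -0.27. Called or not, 82 of the 87 had a log2 fold change below 0, with a median of -0.10 against 0.01 over all genes. An unadjusted p under 0.05 was found for 28, all of them lower, and the share of all genes is not reported here. The members were read in the same livers and are not independent, so these counts are a description. The count of called members moved with the libraries used, to 15 without the 7 libraries, where 6.56% of all genes were lower, and to 1 without ZT10, where 3.71% were. It lay between 0 and 13 when 1 replicate number was left out. Cell type markers also differed between these groups, with 3 of 5 neutrophil and 4 of 9 stellate cell markers higher in Hep-Bmal1KO, 2 higher and 1 lower of 10 Kupffer cell markers, and 1 higher and 2 lower of 10 hepatocyte markers. Of 5 cholangiocyte markers 3 were higher and all 5 had an unadjusted p under 0.05, with a median log2 fold change of 0.84 and summed medians of 22.98 and 42.5 CPM, and of 5 erythroid markers 1 was lower. The summed stellate cell markers ran from 601 over 770.2 to 1160.4 CPM in Hep-Bmal1WT cdHFD and from 585 over 920.2 to 1624 CPM in Hep-Bmal1KO cdHFD, and the part of these cells in the nuclear differences was not tested.

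Diet gave the widest differences, and how they read depended on the scaling. On the TMM scale, 76 of 87 nuclear members fell on cdHFD in Hep-Bmal1WT and 80 of 87 in Hep-Bmal1KO, with medians of -0.47 and -0.54, whereas under library totals the medians were 0.03 and -0.06 with 26 higher and 17 lower in Hep-Bmal1WT and 11 higher and 33 lower in Hep-Bmal1KO. On the TMM scale 27.3% of all genes were lower and 28.4% higher in Hep-Bmal1WT, and 29.6% and 32.4% in Hep-Bmal1KO. Library totals moved the median of all genes by 0.49 (log2) in Hep-Bmal1WT and 0.48 in Hep-Bmal1KO, and under them 64.3% of all genes were higher and 8.14% lower in Hep-Bmal1WT, and 65.2% and 10.7% in Hep-Bmal1KO. Relative to the other genes of the same livers, the nuclear members were thus lower, by the gap between their median and that of all genes. A change of scaling moves all genes of a library together and hardly changes this gap, so the 2 scalings are not separate evidence for it. The share of the nuclear members in all counted reads stayed at group medians of 2.45% and 2.51% in Hep-Bmal1WT and 2.62% and 2.43% in Hep-Bmal1KO.

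The decrease on the TMM scale was spread over the 5 complexes. In Hep-Bmal1WT it was called for 35 of 38 nuclear genes of complex I, 4 of 4 of complex II, 8 of 8 of complex III, 13 of 19 of complex IV and 16 of 18 of complex V, with medians from -0.53 (complex II) to -0.39 (complex IV), all of which came between -0.03 and 0.11 under library totals. In Hep-Bmal1KO it was called for 37, 4, 8, 13 and 18, with medians from -0.58 (complex II) to -0.47 (complex IV), which came between -0.10 and 0.01 under library totals. All genes tested had medians of 0.01 and 0.02 on the TMM scale.

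**Figure D3:**
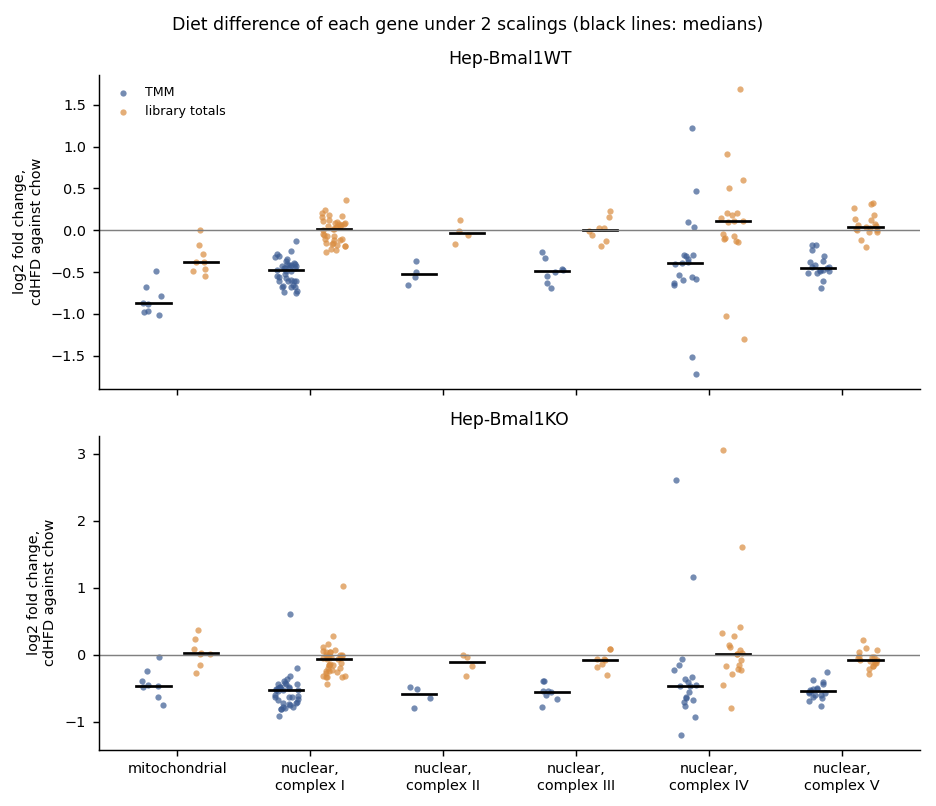
Log2 fold change of each respiratory chain gene, cdHFD against chow, in Hep-Bmal1WT (top) and Hep-Bmal1KO (bottom), for mitochondrial genes and for nuclear genes by complex, under TMM (blue) and library totals (orange), with black lines at the medians. The nuclear medians sit between -0.58 and -0.39 under TMM and between -0.10 and 0.11 under library totals, and the mitochondrial median in Hep-Bmal1WT is below 0 under both (-0.87 and -0.38).

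The genes with the smallest p kept a log2 fold change below 0 under library totals as well (Ndufb11 -0.23 and Uqcr11 -0.19 in Hep-Bmal1WT, Ndufv3 -0.43 and Sdha -0.32 in Hep-Bmal1KO). Ndufb11 (chromosome X, 20615326 to 20617619), a membrane-arm subunit of complex I, had 341, 526 and 614 CPM (lowest, median and highest) in Hep-Bmal1WT chow and 222, 315 and 364 CPM in Hep-Bmal1WT cdHFD. The ranges overlapped between 341 and 364 CPM, and the log2 fold change was -0.72 (SE 0.04, adjusted p = 8.7e-21). Uqcr11 (chromosome 10, 80402997 to 80406821), a small subunit of complex III, had 289, 341 and 369 CPM on chow and 174, 203 and 256 CPM on cdHFD in Hep-Bmal1WT, with no overlap, and fell by 0.69 on the log2 scale (SE 0.04, adjusted p = 1.8e-19). In Hep-Bmal1KO its values were 299, 335 and 381 CPM against 128, 197 and 247 CPM, again without overlap.

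In Hep-Bmal1KO the smallest p was that of Ndufv3, with 285, 350 and 420 CPM on chow and 138, 191 and 213 CPM on cdHFD, 2 sets of livers that did not overlap, and a log2 fold change of -0.91 (SE 0.05, adjusted p = 6.9e-23). Sdha, the flavoprotein of complex II that oxidizes succinate, had 172, 321 and 390.1 CPM against 96.1, 179 and 241 CPM, a log2 fold change of -0.80 (SE 0.05, adjusted p = 1.3e-20). Ndufa6 of complex I had a log2 fold change of -0.79 in Hep-Bmal1KO and -0.56 in Hep-Bmal1WT. Ndufb5 of complex I and Sdhb, the iron-sulfur subunit of complex II, had -0.68 and -0.55 in Hep-Bmal1WT. At the other end, Atp5b, the catalytic beta subunit of complex V, and Uqcrq of complex III, the members of their complexes with the highest mean CPM, had -0.23 and -0.26 in Hep-Bmal1WT on the TMM scale and 0.26 and 0.23 under library totals.

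On the TMM scale, every one of the 24 cdHFD livers lay below all 24 chow livers for 5 nuclear members in Hep-Bmal1WT (Atp5j, Cox6c, Ndufa6, Uqcr11 and Uqcrb), where 1.54% of all genes did. In Hep-Bmal1KO this held for 11 (Atp5e, Atp5h, Atp5j, Cox7b, Ndufa6, Ndufb1-ps, Ndufb4, Ndufv3, Uqcr11, Uqcrb and Uqcrc2), where 2.55% of all genes did. No mitochondrial gene had such a separation. These separations were not counted under library totals, which moved the median of all genes by 0.49 (log2) in Hep-Bmal1WT and 0.48 in Hep-Bmal1KO. Cox7a2l was not called in either genotype, with log2 fold changes of 0.10 (SE 0.06, adjusted p = 0.15) and -0.07 (SE 0.06, adjusted p = 0.33). Members that were higher on cdHFD on the TMM scale were low-count isoforms of complex IV. They were Cox6b2, known from testis, at 1.22 (SE 0.38, adjusted p = 0.0053) in Hep-Bmal1WT and 2.60 (SE 0.46, adjusted p = 2.9e-06) in Hep-Bmal1KO, and Cox4i2, known from lung, at 1.16 (SE 0.49, adjusted p = 0.034) in Hep-Bmal1KO. The median of Cox6b2 was under 1 CPM in all 4 groups.

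For the mitochondrial genes, diet went with a lower level in both genotypes on the TMM scale, and under library totals in Hep-Bmal1WT but not in Hep-Bmal1KO. On the TMM scale their sum had a ratio of means of 0.621 in Hep-Bmal1WT, where 19 of 24 cdHFD livers lay below the lowest chow liver, and of 0.742 in Hep-Bmal1KO, where 13 of 24 did. Under library totals the means of the sum were 40543 CPM on chow and 35537 CPM on cdHFD in Hep-Bmal1WT. In Hep-Bmal1KO they were 32637 and 33710 CPM. On the TMM scale 7 of the 8 genes fell in each genotype, with mt-Nd3 as the exception, and medians of -0.87 and -0.46. In Hep-Bmal1WT mt-Nd2 fell by 0.96 (log2, SE 0.07, adjusted p = 1.6e-16) and mt-Nd5 fell by 0.88 (SE 0.06, adjusted p = 3.0e-17), while mt-Nd1 fell by 0.49 (SE 0.10, adjusted p = 3.0e-05). In Hep-Bmal1KO mt-Nd2 fell by 0.75 and mt-Nd1 fell by 0.25. Under library totals 6 of the 8 were still lower in Hep-Bmal1WT, with a median of -0.38, and in Hep-Bmal1KO 1 was lower and 1 higher, with a median of 0.02. The ribosomal RNAs mt-Rnr1 and mt-Rnr2 had log2 fold changes of -1.15 and -0.87 in Hep-Bmal1WT and -0.58 and -0.66 in Hep-Bmal1KO on the TMM scale.

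The makeup of the tissue RNA moved with diet. All 10 hepatocyte markers were lower on cdHFD in both genotypes, with summed medians of 162882 CPM on chow and 77525 CPM on cdHFD in Hep-Bmal1WT and 122946 and 66402 CPM in Hep-Bmal1KO. All 10 Kupffer cell and macrophage markers were higher, with summed medians of 444 and 2076 CPM in Hep-Bmal1WT and 416 and 2294 CPM in Hep-Bmal1KO, and so were 5 of 5 neutrophil markers and 7 or 8 of 9 stellate cell markers. The 5 erythroid markers were lower in both genotypes. The part of these shifts in the diet difference of the respiratory chain genes was not tested.

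Genes that build or express the chain, outside the member list, were counted by the same tests. Of 51 assembly factors, which help to put the complexes together, 12 were higher and 1 lower in Hep-Bmal1KO on chow, where 7.08% of all genes were higher and 5.45% lower, among them Cmc1 (0.36, adjusted p = 2.6e-05), Uqcc3 (0.27, adjusted p = 0.00062), Ndufaf7 (0.38, adjusted p = 0.0018) and Sdhaf4 (0.28, adjusted p = 0.0018). Of 80 mitochondrial ribosomal proteins, which translate the mitochondrial messages, 14 were higher and 2 lower on chow, among them Mrpl41 (0.35, adjusted p = 0.00025) and Mrpl32 (0.28, adjusted p = 0.00019). Under library totals these counts on chow were 18 higher and 0 lower for the assembly factors and 39 higher and 0 lower for the ribosomal proteins, where 11.1% of all genes were higher. On cdHFD edgeR gave 0 higher and 1 lower, and 0 higher and 2 lower, between genotypes, where 4.75% of all genes were higher and 4.92% lower. Of 25 genes for the upkeep and expression of mitochondrial DNA, 1 was higher and 2 lower on chow and none was called on cdHFD, where 2 had an unadjusted p under 0.05 in edgeR. Slirp, whose product binds mitochondrial messenger RNA, was the one higher on chow (0.19, adjusted p = 0.0057), and Fastk (-0.27, adjusted p = 0.034) and Mterf2 (-1.04, adjusted p = 0.038) were lower.

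Between diets on the TMM scale, 37 of the 51 assembly factors were lower in Hep-Bmal1WT and 39 in Hep-Bmal1KO, 43 and 63 of the 80 ribosomal proteins, and 13 and 16 of the 25 genes of mitochondrial DNA expression, where 27.3% and 29.6% of all genes were lower. Under library totals 3 and 11 assembly factors were lower and 25 and 17 higher, 1 and 6 ribosomal proteins lower and 60 and 46 higher, and 3 and 2 genes of mitochondrial DNA expression lower and 15 and 14 higher, where 8.14% and 10.7% of all genes were lower and 64.3% and 65.2% higher. The sign of the median log2 fold change of these lists thus turned with the scaling. The medians lay below that of all genes, a gap that the choice of scaling hardly changes. Under library totals they were 0.18 and 0.05 for the assembly factors and 0.33 and 0.17 for the ribosomal proteins. For mitochondrial DNA expression they were 0.24 and 0.20, where all genes had 0.50 and 0.50. On the TMM scale Ndufaf6, an assembly factor of complex I, had log2 fold changes of -0.80 and -1.03 (adjusted p = 3.9e-14 and 1.0e-20). Tfam, which packs and transcribes mitochondrial DNA, had -0.39 and -0.46 (adjusted p = 3.3e-09 and 1.9e-09). The shift between scalings given above applies to these values too. Atpif1, the inhibitor of complex V, stood against the rest of the chain with 0.53 and 0.37 (adjusted p = 2.2e-09 and 1.8e-05).

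Over the day, the nuclear sum in Hep-Bmal1WT chow was highest at ZT18 (33081 ± 1136 CPM) and lowest at ZT10 (23589 ± 1090 CPM), and ranged between 28544 and 31086 CPM in the means of the other 4 times (SD, n = 4 each). In Hep-Bmal1KO chow the highest mean was 31481 ± 746 CPM at ZT6 and the lowest 25226 ± 1268 CPM at ZT10. On cdHFD the means ran from 18228 ± 1485 CPM at ZT10 to 22887 ± 972 CPM at ZT18 in Hep-Bmal1WT and from 16547 ± 1671 CPM at ZT10 to 22792 ± 2186 CPM at ZT14 in Hep-Bmal1KO. ZT10 thus had the lowest mean sum in all 4 groups. In Hep-Bmal1KO cdHFD the mean at ZT22 was 18467 ± 2199 CPM. There, of the 75 nuclear members with at least 10000 counts, 65 lay below the mean of the other times at ZT22 and 60 at ZT10. The 4 livers of ZT10 lay below the other 20 in both chow groups (22262 to 24516 CPM against 26008 to 34463 CPM in Hep-Bmal1WT, 24019 to 26474 CPM against 26919 to 32555 CPM in Hep-Bmal1KO) and overlapped with them in both cdHFD groups. As a share of counted reads the ZT10 mean was also the lowest in each group, and it was apart from the other livers in both Hep-Bmal1WT groups, at 1.91% to 2.14% against 2.21% to 2.77% on chow and 2.07% to 2.26% against 2.32% to 2.73% on cdHFD.

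**Figure D4:**
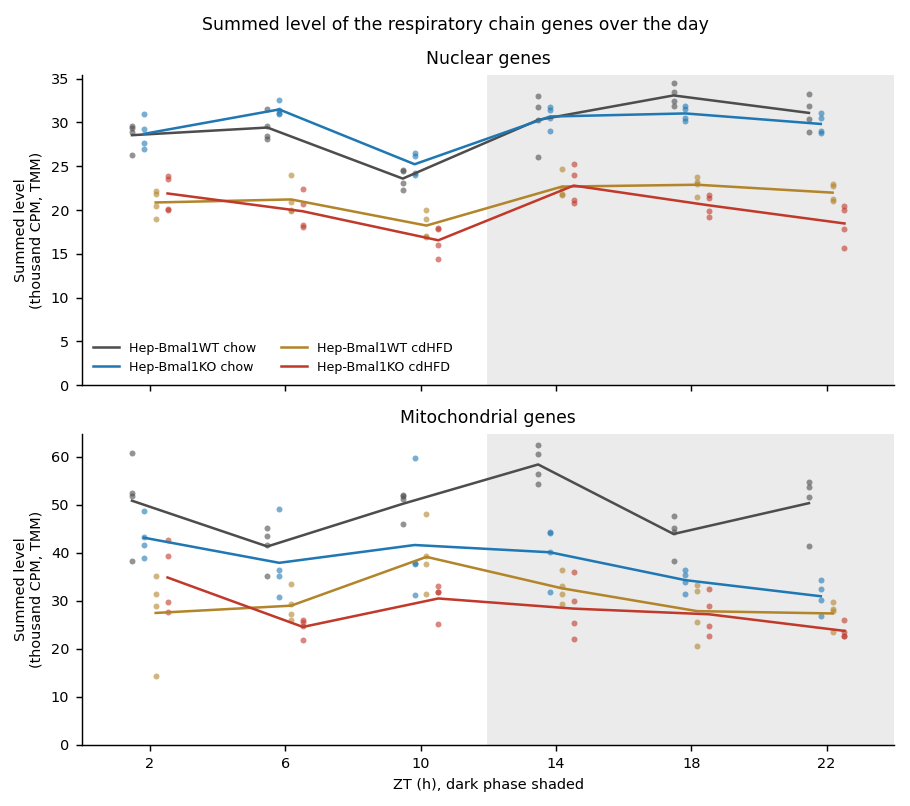
Summed level of the nuclear (top) and mitochondrial (bottom) genes by ZT, in units of 1000 CPM after TMM scaling, with 1 point per liver, lines through the means of 4 livers, and the dark phase shaded. The nuclear means dip to 23589, 25226, 18228 and 16547 CPM at ZT10 in Hep-Bmal1WT chow, Hep-Bmal1KO chow, Hep-Bmal1WT cdHFD and Hep-Bmal1KO cdHFD, and the mitochondrial means are not at their lowest at that time.

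The mitochondrial sum had another course. In Hep-Bmal1WT chow its mean was highest at ZT14 (58359 CPM) and lowest at ZT6 (41274 CPM). In Hep-Bmal1WT cdHFD it was highest at ZT10, at 39103 ± 6845 CPM (SD, n = 4), while in Hep-Bmal1KO it was highest at ZT2 on both diets, at 43104 ± 4150 CPM on chow and 34809 ± 7260 CPM on cdHFD.

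Rhythms were tested in the 24 livers of each group with a period of 24 hours by JTK_CYCLE, a cosinor F test and edgeR's test on cosine and sine terms, and a gene was called rhythmic at an unadjusted p under 0.01 in at least 1 of the 3. In Hep-Bmal1WT chow 39 of 95 members (41.1%) were rhythmic, against 21.6% of all genes, and in Hep-Bmal1WT cdHFD 21, against 18.2%. In Hep-Bmal1KO there were 5 on chow, against 10.7% of all genes, and 4 on cdHFD, against 9.81%. By complex, the rhythmic nuclear genes of Hep-Bmal1WT chow were 16 of 38 of complex I, 2 of 4 of complex II, 4 of 8 of complex III, 7 of 19 of complex IV and 9 of 18 of complex V. Of the 8 mitochondrial genes, mt-Nd6 was rhythmic in Hep-Bmal1WT chow, and mt-Nd4 and mt-Cytb in Hep-Bmal1WT cdHFD.

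Most of the rhythmic nuclear genes of Hep-Bmal1WT chow, 32 of 38, had their fitted peak in the dark, as did 1715 of the 3366 rhythmic genes among all genes. For the 35 with at least 10000 counts the median peak was at ZT20.4, with quartiles of ZT19.3 and ZT20.8, and the median amplitude was 0.25 (log2 scale of DESeq2's variance-stabilizing transformation). The largest amplitude among them was that of Atp5b, at 0.57 (SE 0.13) with a peak at ZT20.5. Cox5a, an early-assembling subunit of complex IV, had an amplitude of 0.48 (SE 0.11) and a peak at ZT20.9, and Ndufs7 an amplitude of 0.23 (SE 0.04) and a peak at ZT19.5. In the light, Ndufa9 of complex I peaked at ZT9.28 with an amplitude of 0.28 (SE 0.05), and mt-Nd6 at ZT8.36 with 0.75 (SE 0.18). These peaks and amplitudes were fitted with the libraries of ZT10 included, and none was fitted without them. Of the 39 rhythmic members of Hep-Bmal1WT chow, 11 were also rhythmic without ZT10. ZT10 minus the mean of the other times was -1.34 for Atp5b, -1.21 for Cox5a, -0.23 for Ndufs7, 0.47 for Ndufa9 and 1.69 for mt-Nd6.

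In Hep-Bmal1KO the rhythmic members on chow were Cox8b, Cox6a2, mt-Nd6, Sdhb and Ndufa10, and on cdHFD Cox8b, Ndufa8, Ndufb8 and mt-Nd6. Over the 39 members rhythmic in Hep-Bmal1WT chow, the median amplitude was 0.25 there, 0.12 in Hep-Bmal1KO chow, 0.16 in Hep-Bmal1WT cdHFD and 0.10 in Hep-Bmal1KO cdHFD, but as the genes were chosen on the value in Hep-Bmal1WT chow, these medians are a description with no test. The difference in rhythm was tested by itself in edgeR. On chow no member had a called difference between genotypes, where 0.386% of all genes did, and 3 of 95 members (3.16%) had an unadjusted p under 0.05, against 7.96% of all genes. The alternatives with the most calls gave 2. Between genotypes on cdHFD only Cox8b was called, against 0.431% of all genes. Between diets Cox6a2 and Cox8b were called in Hep-Bmal1WT, against 6.13% of all genes, and none in Hep-Bmal1KO, where 0.907% of all genes were and Cox6a2 had an unadjusted p of 0.010.

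The rhythm counts of Hep-Bmal1WT moved with the libraries used. Without the 16 libraries of ZT10, 13 members were rhythmic in Hep-Bmal1WT chow (13.7%, against 11.9% of all genes), 11 of them among the 39, and 9 in Hep-Bmal1WT cdHFD, against 13.9% of all genes. In Hep-Bmal1KO there were 4 on chow, against 7.35%, and 3 on cdHFD, against 7.71%. Without the 7 libraries at odds with their label there were 42 in Hep-Bmal1WT chow, against 20.3% of all genes, 15 in Hep-Bmal1WT cdHFD, against 17.1%, 5 in Hep-Bmal1KO chow, against 9.92%, and 4 in Hep-Bmal1KO cdHFD, against 9.72%. Leaving out 1 replicate number gave 24 in Hep-Bmal1WT chow without replicate 3 and 22 without replicate 4, against 15% and 15.2% of all genes. In Hep-Bmal1WT cdHFD it gave 12, 3 and 13 without replicates 1, 2 and 3, against 12%, 11.5% and 14.9%.

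Libraries of ZT10 differed from those of the other times in many genes and in both directions, a pattern that was noticed in the values and is described here with no test. The 4 livers of ZT10 lay below the other 20 for 2.58% of all genes in Hep-Bmal1WT chow, 1.78% in Hep-Bmal1KO chow, 1.67% in Hep-Bmal1WT cdHFD and 1.8% in Hep-Bmal1KO cdHFD. They lay above the other 20 for 1.96%, 0.81%, 0.99% and 0.695%. At each of the other times both shares were at most 0.154%. Of the nuclear members, 12, 15, 6 and 11 lay below in this way, and 2 (Ndufb8 and Sdhb), 1 (Ndufb8), 2 (Ndufa5 and Ndufb8) and 0 lay above. Reads that aligned outside genes made up 8.90% to 11.3% of the reads in the 16 libraries of ZT10, with a median of 9.47%, and 5.65% to 11.2% in the other 80, with a median of 7.83%. The part of library preparation in the pattern was not tested.

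The low members at ZT10 came from all 5 complexes. In Hep-Bmal1WT chow the 4 livers of ZT10 had 613, 608, 562 and 559 CPM of Atp5b (chromosome 10, 128083307 to 128090388), while the other 20 ran from 895 over a median of 1565 to 2002 CPM. All 4 were thus under the lowest of the rest. The ranges at ZT10 were 615 to 780.0 CPM in Hep-Bmal1KO chow, 474 to 640.0 CPM in Hep-Bmal1WT cdHFD and 403 to 686 CPM in Hep-Bmal1KO cdHFD, each below the other 20 livers of its group (lowest 956, 725 and 897 CPM). On the transformed log2 scale, the mean of Atp5b at ZT10 minus the mean of the other times was -1.34 in Hep-Bmal1WT chow, -1.13 in Hep-Bmal1KO chow, -1.20 in Hep-Bmal1WT cdHFD and -1.04 in Hep-Bmal1KO cdHFD. For Cox5a these differences were -1.21, -0.89, -0.83 and -0.80 in the same order. For Sdhd, a membrane anchor of complex II, they were -1.20, -0.84, -0.86 and -0.94. The complex I subunit Ndufb9 had -0.99, -0.69, -0.74 and -0.74.

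Other members were high at the same time. Ndufb8 (chromosome 19, 44548571 to 44555442), another membrane-arm subunit of complex I, had 182, 158, 152 and 171 CPM in the 4 livers of ZT10 in Hep-Bmal1WT chow and 60.9 to 145 CPM in the other 20, with no overlap. Its difference at ZT10 was 0.93 in Hep-Bmal1WT chow, 0.98 in Hep-Bmal1KO chow, 0.90 in Hep-Bmal1WT cdHFD and 0.88 in Hep-Bmal1KO cdHFD. Ndufa12 of complex I had 0.67, 0.45, 0.61 and 0.34. Ndufb8 and Ndufb9 are thus subunits of the same arm of complex I that lay on opposite sides at ZT10 in all 4 groups. Among mitochondrial genes mt-Nd6 had 1.69, 1.30, 0.83 and 0.92 and mt-Nd4 0.53, 0.54, 0.81 and 0.41, and mt-Nd4 lay above the other 20 livers in both Hep-Bmal1WT groups.

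Of the 75 nuclear members with at least 10000 counts, 45 were below the mean of the other times at ZT10 in all 4 groups, 11 above in all 4, and 19 mixed. The 11 above were Ndufa1, Ndufa5, Ndufa8, Ndufa9, Ndufa10, Ndufa12, Ndufb4, Ndufb7, Ndufb8 and Ndufs1 of complex I and Cox7b of complex IV. Below in all 4 groups were 18 of 36 genes of complex I, 3 of 4 of complex II, 3 of 8 of complex III, 8 of 12 of complex IV and 13 of 15 of complex V. The differences of the 75 genes at ZT10 ranked alike in the 4 groups, which share no libraries, with Spearman coefficients of 0.92 to 0.96 over the 6 pairs of groups. At ZT2 the same coefficients were -0.06 to 0.10, at ZT14 0.52 to 0.67, at ZT18 0.05 to 0.67, and at ZT6 and ZT22 0.42 to 0.78. These coefficients are across genes, which are not independent, and are given as a description.

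**Figure D5:**
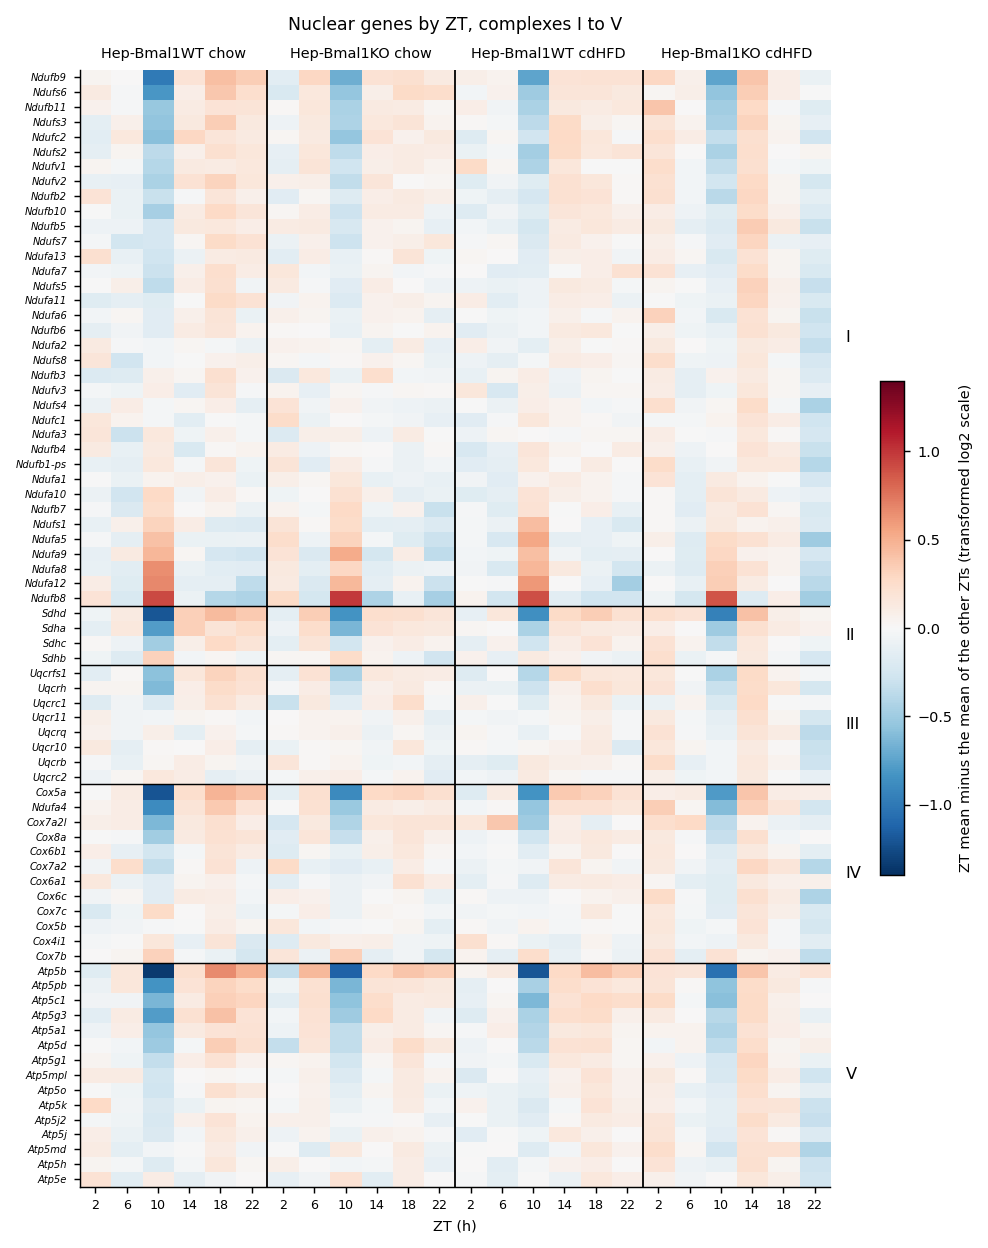
Nuclear genes with at least 10000 counts (rows, by complex) at each ZT in the 4 groups (columns), coloured by the mean of that ZT minus the mean of the other ZTs on the transformed log2 scale. The ZT10 columns carry the strongest colours in each group, from -1.34 (Atp5b) to 0.98 (Ndufb8), with blue in most genes and red in a set of complex I genes.

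The rhythm calls of Cox6a2 and Cox8b, complex IV isoforms known from heart and skeletal muscle, rested on few libraries. Cox6a2 had 1998 counts in all, 68.5% of them in 5 libraries, and Cox8b 199 counts, 81.4% of them in 5 libraries. A summed level of 10 skeletal muscle markers, a list added after these values were seen, had medians of 1.81 to 2.28 CPM in the 4 groups and reached 1968 CPM in 1 liver of Hep-Bmal1WT chow at ZT18, which also held the highest levels of Cox6a2 (104 CPM) and Cox8b (7.52 CPM). The next highest sums were 1266, 904, 587 and 568 CPM, with 41.6, 37.1, 34.1 and 21.4 CPM of Cox6a2. The 10 libraries with the highest marker sums held 79.6% of the Cox6a2 counts and 82.4% of the Cox8b counts. Most counts of both genes thus lay in livers with high muscle markers, but not all: replicate 2 of Hep-Bmal1KO cdHFD at ZT10 held 24 counts of Cox8b (2.27 CPM) and 51 of Cox7a1 at a marker sum of 1.80 CPM, under its group's median of 2.28 CPM.

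Sex was compared over all 96 livers. Of the nuclear members, 6 were higher in females, where 8.39% of all genes were, and 1 was lower, where 7.72% were. The 6 were Ndufa7 (log2 fold change 0.15, adjusted p = 0.0033), Atp5g1 (0.10), Uqcrc2 (0.08), Sdhc (0.11), Uqcrb (0.11) and Atp5h (0.08). Cox7a2 was lower (-0.19, adjusted p = 0.0004), and mt-Cytb higher (0.14, adjusted p = 0.044). Without ZT10, 3 nuclear members were higher, where 7.96% of all genes were, and 2 lower, where 7.15% were, and no mitochondrial gene was called.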

How the data were processed

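Liver RNA of 96 mice was analysed in 24 groups of genotype, diet and ZT with 4 mice each, assigned from the sample labels. The deposited table holds raw read counts per gene. Per the study's methods and the submitters' processing notes, the authors demultiplexed 3′ BRB-seq reads, aligned them to mm10 with STAR and counted them per gene. Both HTSeq and featureCounts are named as counters, and versions, strand setting and the use of molecular identifiers are not given in the sources used here. 3′ reads do not scale with transcript length. CPM was still not read as an amount relative to other genes, and the highest mean CPM served to choose names. Counting precision follows the depth of 1861740 to 9718615 reads on genes per library.

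The minimum of 100 counts summed over libraries kept 15548 of the 55487 genes listed. In R 4.3.3, edgeR 4.0.16 with TMM factors over all 96 libraries fitted a quasi-likelihood model per comparison that held ZT as a factor, and p-values were adjusted by Benjamini-Hochberg over the whole table, at a threshold of 0.05. Genotype was compared within each diet, diet within each genotype, their interaction over all libraries, and sex with group and ZT as factors. Rhythms of a 24 h period were tested per group by JTK_CYCLE and a cosinor F test on DESeq2 1.42.0 variance-stabilized values and by edgeR, and a gene with an unadjusted p under 0.01 in at least 1 of them was called rhythmic. Differences in rhythm were tested in edgeR as interactions with the cosine and sine terms. The scripts were tested on simulated counts.

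Members and gene lists were chosen with earlier results of these data known, and the muscle marker list after the levels of Cox6a2 and Cox8b were seen. Genes were named by a rule: all mitochondrial members, the member with the highest mean CPM of each nuclear complex, the 4 nuclear members of smallest p per direction in each comparison, the 3 of smallest p among rhythmic members and in each rhythm difference, any in a count of 5 or fewer, and up to 4 genes of each other list, of which 1 gene is not reported here. Genes named beside these in the description of ZT10, of groups that do not overlap and of sex were chosen after their values were seen. Each library was 1 mouse per the labels, and p-values cover the spread between these mice. Replicates were numbered in the order of deposit, and no pair of replicates held identical counts (0 pairs). In 1 library the sex markers did not match the label, which was kept. Coordinates are from RefSeq on GRCm38.p6. Alternatives were DESeq2's test and size factors, library totals, 2 other filters on low counts, normalization without mitochondrial genes, sex as a covariate, other rhythm rules, and fits without 1 replicate number, without the 7 libraries at odds with their label and without ZT10. The fits with library totals and without ZT10 were chosen after seeing the data.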

Additional observations from a re-analysis of the deposited data

Results flagged for a closer look

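The interaction of genotype and diet was called for mt-Nd5, with a log2 difference of 0.42 between the genotype effect on cdHFD and on chow. Its levels were lower in Hep-Bmal1KO on chow and overlapped fully on cdHFD, and the other mitochondrial genes had terms of the same sign that were not called.

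Differences in rhythm were called for Cox8b between genotypes on cdHFD (edgeR, adjusted p = 0.020), for Cox8b between diets in Hep-Bmal1WT (edgeR, adjusted p = 0.0050) and for Cox6a2 between diets in Hep-Bmal1WT (edgeR, adjusted p = 0.0022). Most counts of both genes lay in the few livers with high skeletal muscle markers, but 24 of the 199 counts of Cox8b came from replicate 2 of Hep-Bmal1KO cdHFD at ZT10, whose marker sum was 1.80 CPM.

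Single livers stood far from the other 3 of their group and time in 2 of the 60 sets of 4 that were checked, and chance marks about 1 set in 20. The summed mitochondrial level was 45896 CPM in replicate 1 of Hep-Bmal1WT chow at ZT10, where the others had 51063 to 51894 CPM. The level of mt-Nd6 was 9.83 CPM in replicate 1 of Hep-Bmal1WT cdHFD at ZT10, where the others had 12.3 to 12.7 CPM.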

How the results depend on the processing

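Of the mitochondrial genes, 5 or 6 were called lower in Hep-Bmal1KO on chow in each alternative run, not always the same ones. The diet differences depended on the scaling, and the rhythm counts and the nuclear genotype counts on single libraries or times. For low-count members depth is the limit.

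Library totals in place of TMM turned the sign of the diet difference in Hep-Bmal1KO for Atp5b (0.10), Uqcrq (0.082), mt-Cytb (0.086), mt-Nd1 (0.23), mt-Nd3 (0.37), mt-Nd4 (0.011), mt-Nd5 (0.026) and mt-Nd6 (0.0097), and in Hep-Bmal1WT for Atp5b (0.26), Uqcrq (0.23) and mt-Nd1 (0.0011). In Hep-Bmal1KO mt-Nd3 also turned with DESeq2's size factors (0.016) and ran from -0.39 to 0.18 when 1 replicate number was left out, and on cdHFD the genotype difference of mt-Nd5 ran from -0.012 to 0.067. The cause was not tested.

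Under library totals diet moved 1 mitochondrial gene up and 1 down and 11 nuclear genes up and 33 down in Hep-Bmal1KO, and 26 up and 17 down in Hep-Bmal1WT. Genotype on chow gave 10 nuclear genes higher and 2 lower, and the interaction 4 nuclear genes lower. The mitochondrial mean in Hep-Bmal1WT chow was 40543 CPM, and the nuclear means were 24206, 25416, 24780 and 23938 CPM in Hep-Bmal1WT chow, Hep-Bmal1KO chow, Hep-Bmal1WT cdHFD and Hep-Bmal1KO cdHFD.

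A filter of 10 counts in 24 libraries, which tests fewer genes, left 0 nuclear genes higher by diet in either genotype, 2 mitochondrial genes in the interaction, 0 rhythm differences between diets in Hep-Bmal1WT and between genotypes on cdHFD, and 3 rhythmic members in Hep-Bmal1KO chow. With no filter beyond 1 count there were 1 nuclear gene higher by diet in Hep-Bmal1KO, 1 lower by genotype on chow, 2 rhythm differences between genotypes on each diet, and 1 nuclear gene higher in females. DESeq2's test gave 2 mitochondrial genes higher and 1 nuclear gene lower in the interaction and 0 rhythm differences between genotypes on cdHFD, and its size factors 2 nuclear genes higher by diet in Hep-Bmal1WT. Over all genes, the filter of 10 counts gave 3676 and 4075 of 12249 higher by diet in Hep-Bmal1WT and Hep-Bmal1KO. It gave 141 higher in the interaction and 1449 rhythmic in Hep-Bmal1KO chow. The filter of 1 count gave 5492 of 26567 higher by diet in Hep-Bmal1KO, 679 lower by genotype on chow and 1383 higher in females. DESeq2's test gave 191 higher and 316 lower in the interaction, and its size factors 4782 higher by diet in Hep-Bmal1WT.

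Without the 7 libraries at odds with their label there were 1 nuclear gene higher by diet in Hep-Bmal1KO, 3 mitochondrial genes higher and 5 nuclear genes lower in the interaction, 15 nuclear genes lower by genotype on cdHFD, 1 rhythm difference between diets in Hep-Bmal1WT, 2 between genotypes on chow, and 0 mitochondrial genes by sex. Without ZT10 there were 1, 2 and 1 (nuclear higher by diet in Hep-Bmal1KO, mitochondrial higher in the interaction, nuclear lower by genotype on cdHFD), 2 nuclear genes higher and 2 lower by genotype on chow, 0 rhythm differences between genotypes on cdHFD, 13 and 9 rhythmic members in Hep-Bmal1WT on chow and cdHFD, and 0 mitochondrial, 3 higher and 2 lower nuclear genes by sex. Over all genes, 5019 were higher by diet in Hep-Bmal1KO without the 7 libraries and 4727 without ZT10. The causes of these changes were not tested.

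JTK_CYCLE alone called 24, 2, 4 and 1 members rhythmic in Hep-Bmal1WT chow, Hep-Bmal1KO chow, Hep-Bmal1WT cdHFD and Hep-Bmal1KO cdHFD. Of all 15548 genes it called 1865, 731, 1538 and 706. The cosinor test alone called 2 and 1 in Hep-Bmal1KO chow and cdHFD, where 1267 and 1157 of all genes were. With edgeR alone there were 3 in Hep-Bmal1KO chow and 13 in Hep-Bmal1WT cdHFD, where 1402 and 2495 of all genes were. An adjusted p under 0.05 gave 2 and 0 in Hep-Bmal1KO chow and cdHFD, where 708 and 641 of all genes were.

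Leaving out 1 replicate number at a time gave 1 to 2 nuclear genes higher by diet in Hep-Bmal1KO, 0 to 1 mitochondrial genes in the interaction, 0 to 13 nuclear genes lower by genotype on cdHFD, 1 to 4 higher and 0 to 3 lower on chow, 1 to 2 rhythm differences between diets in Hep-Bmal1WT, 0 to 0 between genotypes on cdHFD and 0 to 1 on chow, 22 to 29, 1 to 5, 3 to 23 and 1 to 4 rhythmic members in Hep-Bmal1WT chow, Hep-Bmal1KO chow, Hep-Bmal1WT cdHFD and Hep-Bmal1KO cdHFD, and 0 to 0 mitochondrial and 0 to 3 nuclear genes higher in females. Over all genes these fits gave 4528 to 4792 higher by diet in Hep-Bmal1KO and 19 to 105 higher in the interaction. By genotype they gave 300 to 652 lower on cdHFD, and 570 to 912 higher and 368 to 709 lower on chow. In females 778 to 931 were higher. Rhythmic genes came to 2332 to 2680, 1097 to 1184, 1784 to 2309 and 967 to 1232 in the same 4 groups. No paired analysis was possible because the replicate numbers follow the order of deposit and pair no mice.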

Other observations

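The pathways that feed the chain were counted by the same edgeR tests. Of 18 genes of the citric acid cycle and pyruvate dehydrogenase, 1 was higher and 5 were lower in Hep-Bmal1KO on chow, where 7.08% of all genes were higher and 5.45% lower. Cs, citrate synthase, was the one higher, at a log2 fold change of 0.37 (adjusted p = 4.8e-05), while Suclg2, a subunit of succinyl-CoA ligase, was at -0.22 (adjusted p = 0.0094). On cdHFD 4 were lower and none higher, where 4.92% of all genes were lower and 4.75% higher, with Pdha1, the catalytic subunit of pyruvate dehydrogenase, at -0.27 (adjusted p = 5.2e-05) and Suclg2 at -0.32 (adjusted p = 0.00017). Between diets, on the TMM scale, 12 were lower in each genotype, where 27.3% and 29.6% of all genes were, among them Fh1 at -0.79 in Hep-Bmal1WT and -1.01 in Hep-Bmal1KO, and under library totals 2 were lower and 11 higher in each.

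Of 22 genes of ubiquinone synthesis, of the enzymes that reduce ubiquinone and of cytochrome c, 4 were higher and 4 lower in Hep-Bmal1KO on chow, beside the same shares of all genes. Both forms of the ubiquinone synthesis kinase were called, on opposite sides, with Coq8a at 0.97 (SE 0.16, adjusted p = 2.1e-05) and Coq8b at -0.58 (SE 0.12, adjusted p = 0.00065). In Hep-Bmal1KO, Coq8a was at -1.86 (SE 0.15, adjusted p = 7.1e-16) between diets on the TMM scale. Chdh, choline dehydrogenase, which passes electrons from choline to the chain, was lower in Hep-Bmal1KO on both diets, at -0.45 (adjusted p = 5.1e-05) on chow and -0.29 (adjusted p = 7.2e-05) on the choline-deficient diet.

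Of 10 carriers and uncoupling proteins of the inner membrane, Ucp2 was higher on cdHFD in both genotypes, at 2.04 (SE 0.07, adjusted p = 1.4e-28) in Hep-Bmal1WT and 2.42 (SE 0.11, adjusted p = 1.6e-25) in Hep-Bmal1KO, beside the higher Kupffer cell markers, and the part of these cells was not tested. Of 9 coactivators and nuclear factors for mitochondrial genes, Ppara was lower in Hep-Bmal1KO on chow (-0.52, adjusted p = 0.0051). On the TMM scale, Ppara (-0.57, adjusted p = 3.3e-05) and Ppargc1a (-0.55, adjusted p = 0.0064) were lower on cdHFD in Hep-Bmal1WT. In that comparison 4 of the 9 were lower and 1 higher, where 27.3% of all genes were lower and 28.4% higher. Under library totals 0 were lower and 6 higher, where 8.14% of all genes were lower and 64.3% higher.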
